A study of Mus musculus with 23 samples.

Results

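Denervated skeletal muscle of PAX4 KO mice was compared with innervated skeletal muscle of WT mice, to describe which changes of nerve loss were present in muscle labelled as lacking PAX4, a paired box transcription factor. The comparison took every gene of a table of raw read counts and 6 of its 9 libraries, out of 23 samples in the series: 3 labelled PAX4 KO, taken 10 d after denervation, and 3 labelled WT innervated control. The 3 other libraries of the table, from WT muscle 10 d after denervation, are given side by side. The series title concerns transcription factors that control proteasome genes. No innervated PAX4 KO muscle was analysed here, so genotype and denervation changed together and their effects cannot be told apart in this comparison alone. The labels do not say how or in which cells Pax4 was inactivated, which muscle was taken, or whether the libraries of a group are separate animals. The p-values therefore measure the spread over these libraries, part of which may be technical.

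A motor nerve keeps the acetylcholine receptor of a muscle fibre confined to the neuromuscular junction and represses its subunit genes elsewhere along the fibre. When the nerve is cut, electrical activity stops, the myogenic factor myogenin and the receptor subunit genes are switched on along the whole fibre, and the fibre atrophies. Atrophy draws on the ubiquitin-proteasome system, in which ligases tag proteins and the proteasome, a 20S core with 19S regulatory particles, degrades them, and on autophagy. Genes of fast contraction and of energy metabolism are known to decline.

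Total counts ranged from 21716216 to 42821396 per library. Pax4 had 0 counts in all 9 libraries, so it did not check the labels. A limit of 3 counts allows up to 0.0701 to 0.138 CPM relative to the unscaled library total, for counting error only. All other CPM (read counts relative to library size) use sizes scaled by the trimmed mean of M-values (TMM). Muscle fibre markers (8 genes, among them Acta1 and Ckm) summed to 39988 to 62555 CPM in every library, so the tissue label held. Innervated library 2 stood apart from the other innervated libraries: on the first principal component (59.0% of the variance) it lay at -44.3, against -86.1 and -88.8, with the denervated libraries between 26.6 and 55.4. PAX4 KO library 2, the shallowest, stood apart on the second component (12.9%), at 49.7. Values without either library are given for some of the results that rest on it. Mitochondrially encoded transcripts took 28.7% to 29.5% of counts in innervated, 18.4% to 23.4% in denervated WT and 14.5% to 19.7% in PAX4 KO libraries. Scaling to total counts in place of TMM moved the median log2 fold change of all genes from 0.05 to 0.54, and that between the denervated genotypes from 0.01 to 0.17.

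Of 54446 genes, 16146 had enough counts to be tested. Denervated PAX4 KO muscle had 3522 genes higher and 2935 lower than innervated WT muscle at an adjusted p under 0.05 (edgeR quasi-likelihood test, Benjamini-Hochberg), which is 40.0% of the genes tested, 21.8% higher and 18.2% lower. Genes past this threshold are said to have risen or fallen, or to have been called. The median log2 fold change over all genes tested was 0.05, and 428 genes rose and 344 fell by more than 1 on the log2 scale in a test against that size. With scaling to total counts in place of TMM, 8337 of the 16146 genes rose and 1068 fell, with a median of 0.54. List counts in that scaling are to be read beside these. The libraries of both groups did not overlap for 8447 genes (52.3%), with 29.0% higher and 23.3% lower in PAX4 KO muscle. Denervated WT muscle, which shares the 3 innervated libraries, had 2661 genes higher and 2549 lower (32.3%). The direct test between the denervated genotypes, in which the innervated libraries cancel, called 3 genes higher in PAX4 KO muscle (0.0186%) and 0 lower. At an unadjusted p under 0.05 that test had 2089 genes (12.9%). DESeq2 called 138 higher and 71 lower there and limma-voom 5, so the number of genes that differed by genotype depended on the tool.

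**Figure D1:**
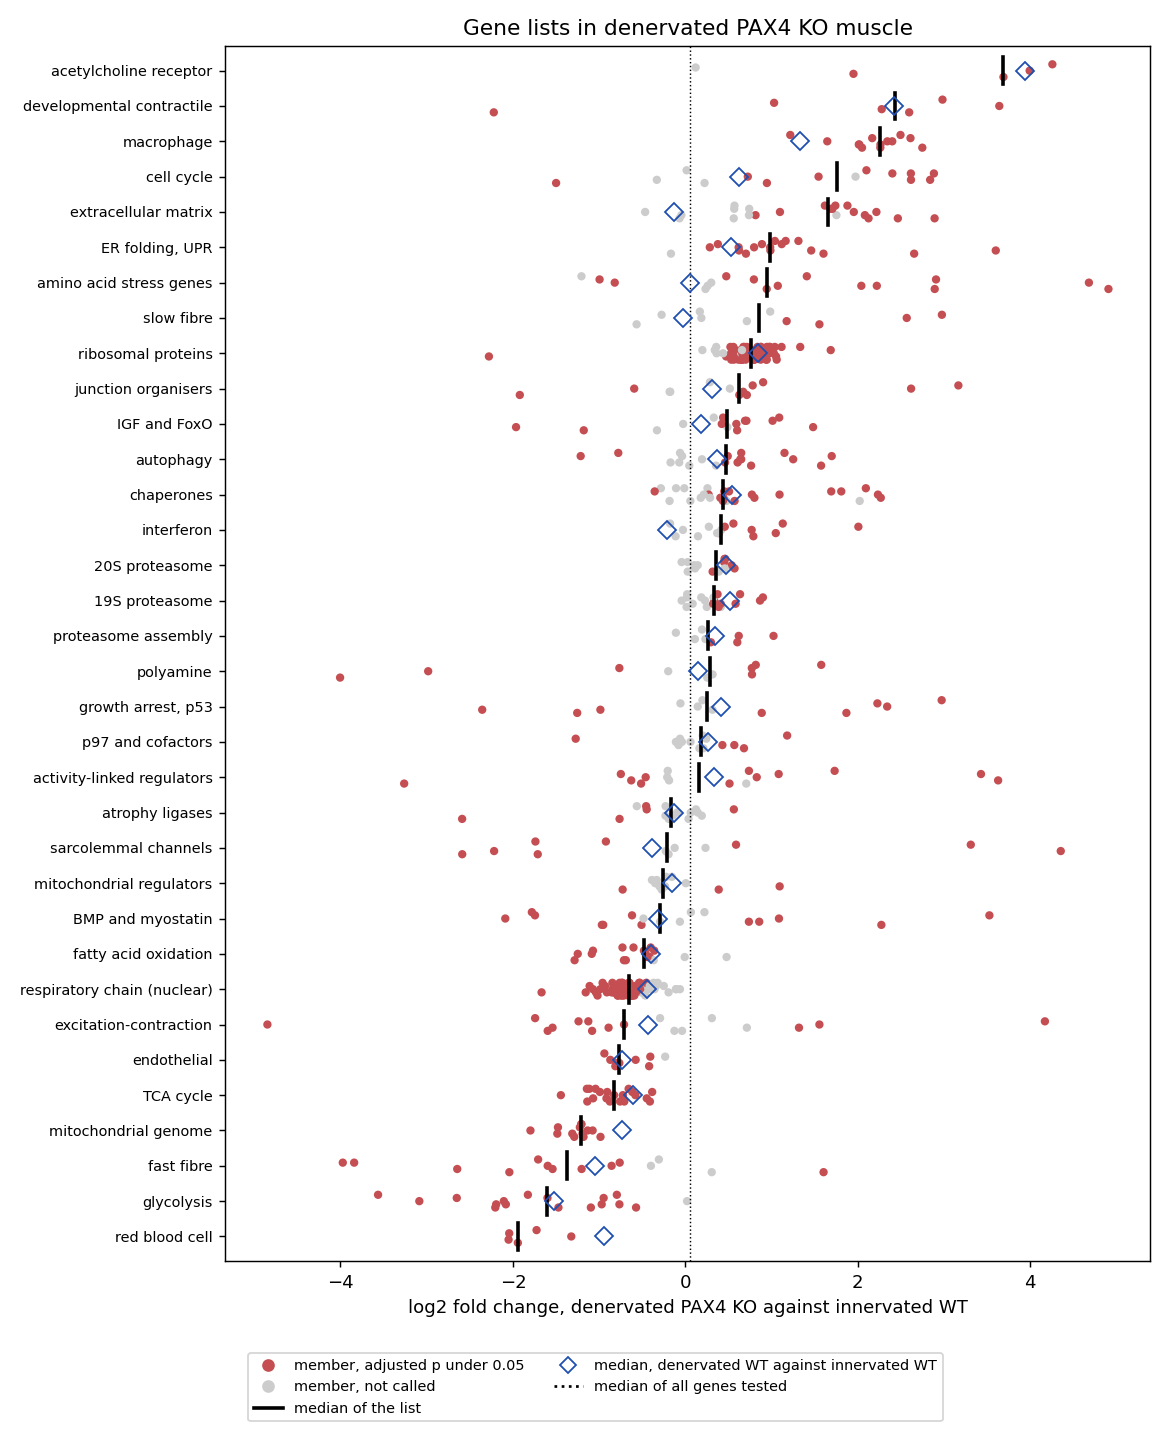
Log2 fold change of each member of 34 gene lists (rows) in denervated PAX4 KO against innervated WT muscle, 3 libraries each (horizontal axis, log2). Red points passed an adjusted p of 0.05 and grey points did not, the black bar is the median of the list, the blue diamond the median for denervated WT against the same innervated libraries, and the dotted line the median of all genes tested (0.05). Receptor genes lie farthest to the right, with a median of 3.69, and glycolytic genes far to the left, with a median of -1.60.

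The acetylcholine receptor genes had the highest list median of the comparison. Of the 5 muscle subunits, 4 rose (median log2 fold change 3.69, against 0.05 for all genes) and 4 rose in denervated WT muscle (3.94). Promoters of the subunit genes are shown because E-boxes, the motif bound by myogenin and its relatives, are known in them. Each line holds the 250 bases before the RefSeq start of the gene (build GRCm38.p6), 5′ to 3′ on the gene's strand, with every CANNTG in capitals. The first is Chrna1 at chr2:73580339-73580588 (minus strand), the second Chrnb1 at chr11:69795938-69796187 (minus), the third Chrng at chr1:87205561-87205810 (plus) and the last Chrne at chr11:70619195-70619444 (minus). Chrnd is named only.
Chrna1: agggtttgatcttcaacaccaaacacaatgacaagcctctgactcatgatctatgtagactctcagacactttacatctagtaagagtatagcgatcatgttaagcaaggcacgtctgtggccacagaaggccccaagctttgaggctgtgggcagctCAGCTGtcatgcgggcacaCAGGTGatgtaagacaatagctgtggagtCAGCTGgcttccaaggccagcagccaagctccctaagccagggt
Chrnb1: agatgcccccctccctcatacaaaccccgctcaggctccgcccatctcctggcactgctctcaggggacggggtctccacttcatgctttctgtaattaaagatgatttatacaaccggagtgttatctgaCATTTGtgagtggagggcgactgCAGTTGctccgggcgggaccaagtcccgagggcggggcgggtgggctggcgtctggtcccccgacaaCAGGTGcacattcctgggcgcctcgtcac
Chrng: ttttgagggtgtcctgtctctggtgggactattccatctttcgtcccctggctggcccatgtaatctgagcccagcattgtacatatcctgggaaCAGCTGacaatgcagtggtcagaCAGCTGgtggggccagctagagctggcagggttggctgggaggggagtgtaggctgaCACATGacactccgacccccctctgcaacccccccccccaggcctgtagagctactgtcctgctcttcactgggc
Chrne: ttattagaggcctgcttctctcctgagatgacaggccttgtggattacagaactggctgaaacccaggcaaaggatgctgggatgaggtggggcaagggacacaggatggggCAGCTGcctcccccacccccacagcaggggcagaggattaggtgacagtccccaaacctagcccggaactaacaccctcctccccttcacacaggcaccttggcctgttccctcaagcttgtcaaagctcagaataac
Chrna1, Chrnb1 and Chrng each held 3 E-boxes and Chrne held 1. CANNTG reads as the same motif on both strands. It was present in 66.2% of the 32851 RefSeq promoters of this length, and 12.2% held 3 or more, so the match is common and describes only these letters.

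Chrna1, the subunit that carries the ligand-binding site, was at 8.03, 108 and 8.51 CPM in innervated libraries 1 to 3 and at 517, 464 and 642 in PAX4 KO libraries 1 to 3. Denervated WT libraries 1 to 3 had 511, 718 and 703. Every denervated library of either genotype lay above every innervated one, and innervated library 2 lay more than 10 times above its 2 companions. The rise in PAX4 KO muscle was 12.9-fold (log2 3.69 ± 0.87 SE, edgeR adjusted p = 0.00734), or 65.3-fold without innervated library 2. Chrnd, the delta subunit, was at 1.82, 22.5 and 1.92 CPM in innervated and 142, 122 and 166 in PAX4 KO libraries, a 15.9-fold rise (log2 3.99 ± 0.81, adjusted p = 0.00375). Chrng, the gamma subunit of the fetal receptor, was at 0.197, 16.0 and 0.105 CPM in innervated and 106, 101 and 121 in PAX4 KO libraries, a 19.1-fold rise (log2 4.26 ± 1.09, adjusted p = 0.011). In all 3 genes innervated library 2 carried most of the innervated signal. Without it the rise was 76.4-fold for Chrnd and 742-fold for Chrng. Chrnb1, the beta subunit, rested less on that library: 28.5, 49.5 and 37.4 CPM became 134, 146 and 167, a 3.87-fold rise (log2 1.95 ± 0.19, adjusted p = 9.65e-05). Chrne, the epsilon subunit of the adult receptor that is read only by nuclei under the junction, was at 8.13, 9.70 and 6.59 CPM in innervated and 9.64, 7.57 and 9.34 in PAX4 KO libraries, which overlap (log2 0.12, adjusted p = 0.665).

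None of the 5 subunits passed the test between denervated genotypes (edgeR, 0 at an unadjusted p under 0.05, 0 by DESeq2 and 0 by limma-voom). For Chrna1 and Chrng DESeq2 gave no adjusted p in this comparison, so its count of 0 says nothing about them. The interval of that difference was wide for the genes that innervated library 2 touched: PAX4 KO minus WT was -0.25 for Chrna1 (95% interval -1.97 to 1.47), -0.25 for Chrng (-2.32 to 1.81) and -0.40 for Chrnd (-1.98 to 1.17). For Chrnb1 it was narrow, -0.11 (-0.51 to 0.28). The fit takes 1 spread per gene over all 3 groups.

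**Figure D2:**
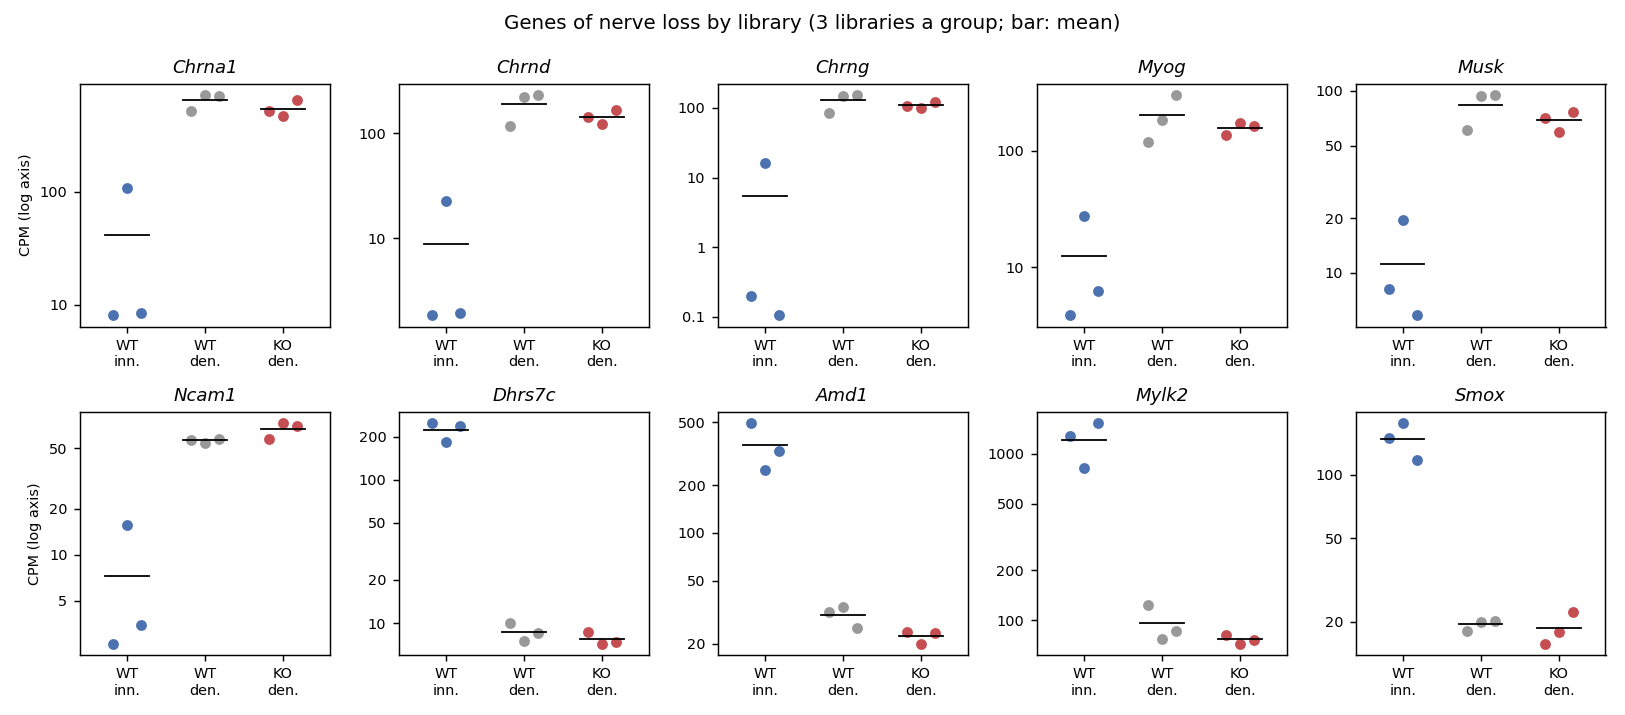
CPM of 10 genes (vertical log axes) in the 3 libraries of innervated WT, denervated WT and denervated PAX4 KO muscle, with library 1 to 3 from left to right and a bar at the mean. Denervated libraries of both genotypes lie above innervated ones for Chrna1 to Ncam1 and below for Dhrs7c, Amd1, Mylk2 and Smox, and innervated library 2 is raised for the first 6 genes.

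Organisers of the neuromuscular junction moved in both directions. Of 13, 7 rose and 2 fell in PAX4 KO muscle (median 0.63), against 4 and 2 in denervated WT muscle (0.31). Musk, the receptor kinase that organises the junction, rose by 2.62 on the log2 scale and Ncam1, an adhesion molecule of denervated fibres, by 3.17. Ncam1 was at 2.61, 15.7 and 3.49 CPM in innervated, 57.0, 54.5 and 58.0 in denervated WT and 58.0, 73.4 and 70.0 in PAX4 KO libraries. Its 2 sets of denervated libraries met at 58 CPM and both lay clear of the innervated ones. Ache, the acetylcholinesterase, had a log2 fold change of -1.92 and Utrn, the utrophin gene, of -0.59. Utrn lost its call with scaling to total counts (-0.10, edgeR adjusted p = 0.548).

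Transcription regulators linked to nerve activity also moved in both directions: of 16, 7 rose and 5 fell in PAX4 KO muscle, and 8 and 5 in denervated WT muscle. Myog, which encodes myogenin, was at 3.84, 27.3 and 6.28 CPM in innervated, 118, 184 and 301 in denervated WT and 136, 173 and 162 in PAX4 KO libraries. All 6 denervated libraries lay above the innervated ones, and the rise in PAX4 KO muscle was 12.4-fold (log2 3.63 ± 0.64 SE, edgeR adjusted p = 0.00176). Runx1, a factor that limits loss of denervated fibres, rose by 3.43. Dach2, a repressor of Myog, had a log2 fold change of -3.26, from 5.22, 2.71 and 2.58 CPM in innervated to 0.536, 0.182 and 0.342 in PAX4 KO libraries. Hdac4, a deacetylase that represses Dach2 after denervation, was at 44.2, 50.5 and 53 CPM in innervated, 92.6, 169 and 147 in denervated WT and 86.1, 95.4 and 81.0 in PAX4 KO libraries. It rose in both genotypes, by 0.83 in PAX4 KO and 1.47 in WT muscle, and the genotypes differed by -0.64 (95% interval -1.06 to -0.21), which was not called (edgeR adjusted p = 0.292). The number of regulators that fell was 3 without innervated library 3 or PAX4 KO library 2, and 1 with scaling to total counts.

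Sodium, potassium and chloride channels of the fibre membrane split by isoform. Kcnn3, the small-conductance potassium channel of denervated fibres, was at 6.01, 23.9 and 5.02 CPM in innervated, 106, 171 and 156 in denervated WT and 102, 115 and 135 in PAX4 KO libraries. All denervated libraries lay above the innervated ones, and the rise in PAX4 KO muscle was 3.31 on the log2 scale (edgeR adjusted p = 0.000902). Clcn1, the resting chloride channel, fell by 1.74 and Scn4b, a sodium channel beta subunit, by 2.59. In all, 3 of 12 rose and 5 fell in each denervated genotype, and the list medians were -0.21 for PAX4 KO and -0.39 for WT. The PAX4 KO median was 0.26 with scaling to total counts.

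Genes that couple excitation to calcium release mostly declined: of 17, 9 fell and 3 rose in PAX4 KO muscle (median -0.71), against 8 and 3 in denervated WT muscle (-0.44). Scaled to total counts, 7 rose and 8 fell in PAX4 KO muscle, with a median of -0.23. Dhrs7c, a sarcoplasmic reticulum dehydrogenase, was at 249, 183 and 237 CPM in innervated, 10.0, 7.47 and 8.48 in denervated WT and 8.63, 7.17 and 7.43 in PAX4 KO libraries. Its fall was the most precise among the 10 lowest genes (log2 -4.85 ± 0.18 SE, edgeR adjusted p = 3.82e-07), and the genotypes differed by -0.16 with a 95% interval of -0.51 to 0.19. Jph2, which holds the triad membranes together, fell by 1.74. Sln, the sarcolipin gene, an inhibitor of the calcium pump, rose by 4.17, from 1.08, 28.9 and 1.12 to 95.5, 224 and 257 CPM. Without innervated library 2 its rise was 7.44.

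Contractile genes of fast fibres fell and those of the fetal programme rose. Of 14 fast genes, 10 fell and 1 rose in PAX4 KO muscle (median -1.37), against 9 and 2 in denervated WT muscle (-1.04). Myh4, the fastest myosin heavy chain, was at 29086, 12241 and 30785 CPM in innervated, 6343, 7524 and 6359 in denervated WT and 3192, 2546 and 5787 in PAX4 KO libraries. The 3 groups did not overlap, and the log2 fold change was -2.65 in PAX4 KO against -1.83 in WT muscle. Mybpc2, the fast myosin-binding protein C, was at 3227, 1754 and 3223 CPM in innervated, 429, 245 and 282 in denervated WT and 144, 165 and 263 in PAX4 KO libraries. It fell by 3.84 in PAX4 KO and by 3.10 in WT muscle, and the difference of -0.74 (95% interval -1.42 to -0.06) was not called. Mylk2 and Mylk4, kinases of the myosin light chain family, fell by 3.97 and 3.86. Mylk4 was at 1548, 853 and 1350 CPM in innervated, 194, 168 and 132 in denervated WT and 101, 66.9 and 90.5 in PAX4 KO libraries, with a genotype difference of -0.94 (-1.47 to -0.41, edgeR adjusted p = 0.264). The 1 fast gene that rose was Myh2, the type IIA myosin heavy chain, at 1.60.

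Of 6 developmental genes, 5 rose and 1 fell in each denervated genotype (medians 2.44 and 2.42). Myh3, the embryonic myosin, rose by 3.64, from 0.640, 25.2 and 1.43 to 118, 113 and 120 CPM in PAX4 KO libraries, beside 102, 122 and 87.8 in denervated WT. Myl4, an embryonic light chain, rose by 2.98, and Actc1, the cardiac actin, fell by 2.22. Among 10 slow-fibre genes 4 rose and 6 were not called in PAX4 KO muscle (median 0.85), against 3 risen and 0 fallen in denervated WT muscle (-0.03). Without PAX4 KO library 2, 3 rose in PAX4 KO muscle, with a median of 0.45. Tnnt1, the slow troponin T, rose by 2.98. Krt18, a keratin, was among the 10 highest genes at a log2 fold change of 3.87 (edgeR adjusted p = 0.025). It lost the call without innervated library 3 (adjusted p = 0.0537) or PAX4 KO library 2 (0.0530). Without innervated library 2 its log2 fold change was 8.68 (edgeR adjusted p = 5.33e-05).

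Proteasome genes rose modestly. Over core subunits, regulatory particle subunits and assembly factors, 19 of 41 genes rose and 22 were not called in PAX4 KO muscle, with log2 fold changes between -0.11 and 1.02 and a median of 0.32. In denervated WT muscle 28 of 41 rose, with a median of 0.50. By role, 6 of 14 core subunits, 9 of 19 regulatory particle subunits and 4 of 8 assembly factors rose in PAX4 KO muscle, against 10, 14 and 4 in WT muscle. Psmd11, a lid subunit, was at 94.0, 109 and 89.8 CPM in innervated, 192, 201 and 185 in denervated WT and 177, 173 and 196 in PAX4 KO libraries. It rose by 0.90 in PAX4 KO and 0.98 in WT muscle, with no overlap between innervated and denervated libraries. Psmc2, a base ATPase, was at 150, 136 and 131 CPM in innervated, 179, 214 and 202 in denervated WT and 171, 170 and 184 in PAX4 KO libraries. Its log2 fold change in PAX4 KO muscle was 0.34 ± 0.11 SE (edgeR adjusted p = 0.0346), and the call was lost in 10 alternatives, with adjusted p from 0.0504 to 0.129.

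Between the denervated genotypes 40 of the 41 proteasome genes had a lower value in PAX4 KO muscle, with a median log2 difference of -0.17, beside 49.0% of all genes with a lower value. With scaling to total counts 22 of the 41 were lower and the median difference was -0.0071. The median over all genes was 0.01 with TMM and 0.17 with scaling to total counts. The sign of the list median was thus clear of 0 only with TMM, while the list median lay below that of all genes in either scaling. By edgeR 0 of the 41 were called, by DESeq2 0 and by limma-voom 0, and 3 had an unadjusted p under 0.05 (beside 12.9% of all genes). For Psmc2 the difference was -0.18 with a 95% interval of -0.42 to 0.07, or -0.0071 with scaling to total counts. The count of 19 rested on single libraries: it was 10 without innervated library 1, 8 without innervated library 3, 11 without PAX4 KO library 1 and 10 without PAX4 KO library 3. With scaling to total counts all 41 were called higher, with a median of 0.80, beside 8337 of all 16146 genes and a median of 0.54. The table of RefSeq promoters held 36 promoters of 34 of these genes. The core of the antioxidant response element, TGACNNNGC on either strand, stood in 6 of them (16.7%, against 10.2% of all promoters), and the 10-base palindromic site of NRF1 in 1 (2.78% against 0.782%). The homeodomain core TAATTA stood in 0 of the 36, against 4.84% of all promoters, which says only that these letters are not in this window.

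Vcp, the ATPase p97 that extracts ubiquitinated proteins, was at 510, 442 and 486 CPM in innervated and 466, 433 and 478 in PAX4 KO libraries (log2 -0.06, edgeR adjusted p = 0.701). The sign of Vcp turned with scaling to total counts, where it was called higher (0.42, adjusted p = 0.0041). Of p97 and 13 cofactors, 4 rose and 1 fell (median 0.18), or 13 and 1 with scaling to total counts (0.65). Ubxn4, an endoplasmic reticulum cofactor, rose by 1.18 and Ubxn2a fell by 1.27. The ligases best known in atrophy, Trim63 and Fbxo32, were not called with TMM scaling. Trim63, which encodes MuRF1, was at 329, 248 and 333 CPM in innervated, 255, 630 and 607 in denervated WT and 307, 303 and 242 in PAX4 KO libraries. PAX4 KO and innervated libraries overlapped (log2 -0.09 ± 0.29 SE, adjusted p = 0.819), while 2 of 3 denervated WT libraries lay above both. Fbxo32, which encodes atrogin-1, was at 479, 355 and 516 CPM in innervated, 416, 767 and 676 in denervated WT and 503, 477 and 405 in PAX4 KO libraries (PAX4 KO against innervated log2 0.04, adjusted p = 0.911). Fbxo32 was called higher with scaling to total counts (0.53, adjusted p = 0.0497), and Trim63 was not (0.40, adjusted p = 0.238).

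The genotype difference for Trim63 was -0.81 (95% interval -1.45 to -0.17, edgeR adjusted p = 0.323) and passed the threshold without denervated WT library 1 (-1.13, adjusted p = 0.0473). For Fbxo32 it was -0.43 (-0.92 to 0.07). Neither rise in denervated WT muscle was called (0.71 with adjusted p = 0.0846 for Trim63, 0.46 with 0.140 for Fbxo32). Of the 16 ligase and ubiquitin genes, 1 rose and 4 fell in PAX4 KO muscle, with a median of -0.17, or 7 and 2 with a median of 0.32 with scaling to total counts. Fbxo30, a ligase of denervation atrophy, rose by 0.56, a call that was lost without innervated library 3 or PAX4 KO library 2. Asb2, a ligase adaptor, fell by 2.59. With TMM scaling the share that rose was below that of all genes (21.8%), and the share that fell was slightly above theirs (18.2%). Scaled to total counts, 8337 of all 16146 genes tested rose and 1068 fell. The number of ligase and ubiquitin genes that fell with TMM scaling was 2 without PAX4 KO library 1 and 2 without PAX4 KO library 2.

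Autophagy and lysosome genes rose more widely, 11 of 20 with 2 fallen (median 0.48), against 10 and 1 in denervated WT muscle (0.37). Scaled to total counts, 17 rose and 1 fell in PAX4 KO muscle. Ctsl, a lysosomal protease, rose by 1.70 and Hexa, a lysosomal hexosaminidase, by 1.25. Tfeb, a regulator of lysosome genes, had a log2 fold change of -1.21. Among 12 growth arrest and p53 genes 5 rose and 3 fell. Gadd45a, which drives part of the denervation response of muscle nuclei, was at 16.0, 67.8 and 19 CPM in innervated, 257, 657 and 589 in denervated WT and 284, 285 and 243 in PAX4 KO libraries. It rose in both genotypes, by 2.97 in PAX4 KO and 3.86 in WT muscle, and 2 of 3 denervated WT libraries lay above all PAX4 KO libraries. That difference was -0.89 (95% interval -1.99 to 0.22) and was called only without innervated library 2 and denervated WT library 1 together (-1.21, edgeR adjusted p = 0.0139). Cdkn1a, which encodes the cell cycle inhibitor p21, rose by 2.34 and 2.85, from 37.1, 68.2 and 57.9 CPM to 252, 259 and 317 in PAX4 KO and 199, 486 and 491 in denervated WT libraries.

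**Figure D3:**
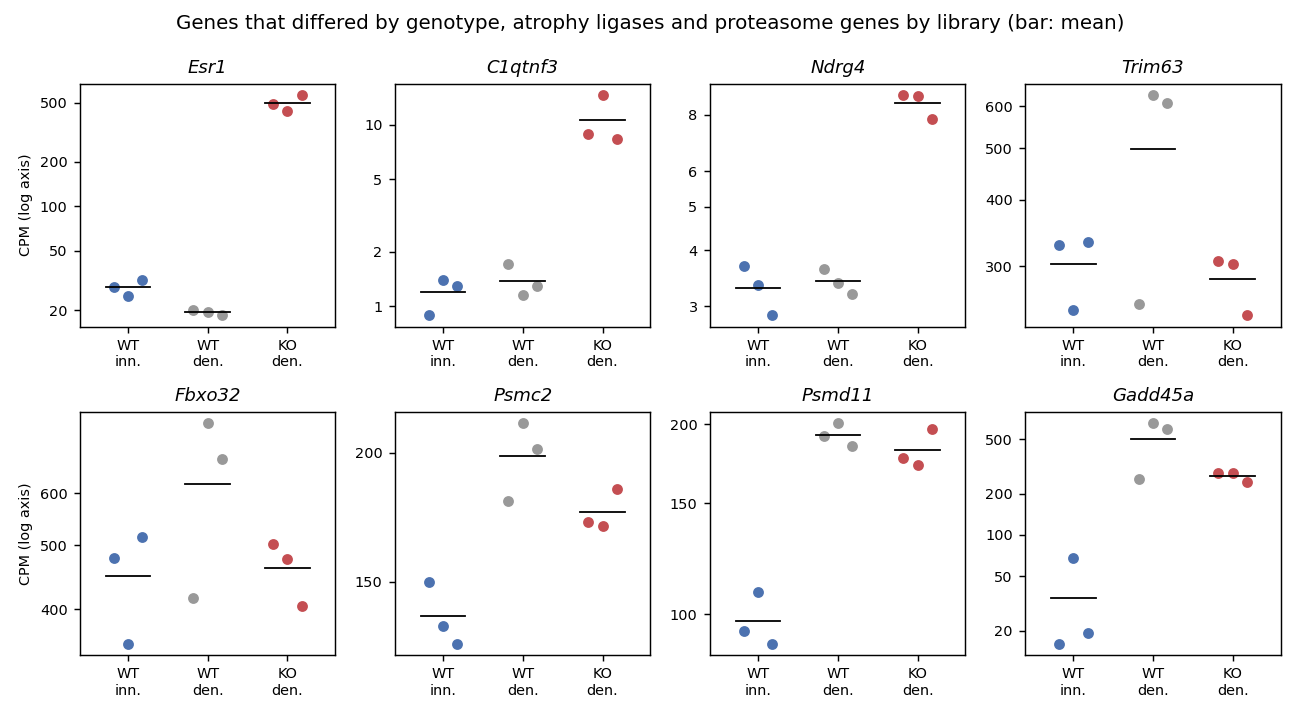
CPM of 8 genes (vertical log axes) in the 3 libraries of innervated WT, denervated WT and denervated PAX4 KO muscle, with library 1 to 3 from left to right and a bar at the mean. PAX4 KO libraries lie alone at 437 to 566 CPM for Esr1, while for Trim63, Fbxo32 and Gadd45a denervated WT libraries 2 and 3 lie above the PAX4 KO libraries.

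Esr1, which encodes estrogen receptor alpha (chromosome 10, 4611593 to 5005614, GRCm38), had the strongest genotype difference. It was at 28.6, 24.9 and 32.0 CPM in innervated, 20.1, 19.5 and 18.4 in denervated WT and 493, 437 and 566 in PAX4 KO libraries. It fell by 0.56 with denervation of WT muscle and rose 17.5-fold in PAX4 KO muscle (log2 4.13 ± 0.15 SE, edgeR adjusted p = 3.82e-07). The difference between the denervated genotypes was 4.69 (95% interval 4.35 to 5.03, adjusted p = 2.71e-07). These are reads assigned to Esr1. Gene counts show neither which part of the gene they came from nor whether they came from the endogenous gene or from any introduced Esr1 sequence. Of 10 estrogen receptor and target genes 7 were tested and 5 rose in PAX4 KO muscle (median 0.64), Esr1 among them. In denervated WT muscle 3 rose and 1 fell (0.61), and Esr1 was the 1 gene of the 7 called between genotypes.

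C1qtnf3, a secreted adipokine, and Ndrg4 also passed the test between genotypes. C1qtnf3 was at 0.887, 1.40 and 1.29 CPM in innervated, 1.71, 1.15 and 1.28 in denervated WT and 8.91, 14.7 and 8.33 in PAX4 KO libraries, 8.77-fold above innervated muscle. Its genotype difference of 2.94 (95% interval 2.32 to 3.56, edgeR adjusted p = 0.00605) lost the call without denervated WT library 2 or 3 (adjusted p up to 0.0888 over the alternatives). Ndrg4 was at 3.69, 3.34 and 2.86 CPM in innervated, 3.64, 3.38 and 3.19 in denervated WT and 8.88, 8.81 and 7.84 in PAX4 KO libraries. PAX4 KO libraries lay above all others in each of these genes, while both WT groups overlapped. The Ndrg4 difference of 1.32 (0.97 to 1.67, adjusted p = 0.0304) lost the call when any of denervated WT library 2 or 3 or PAX4 KO library 1, 2 or 3 was left out (adjusted p up to 0.327 over the alternatives).

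**Figure D4:**
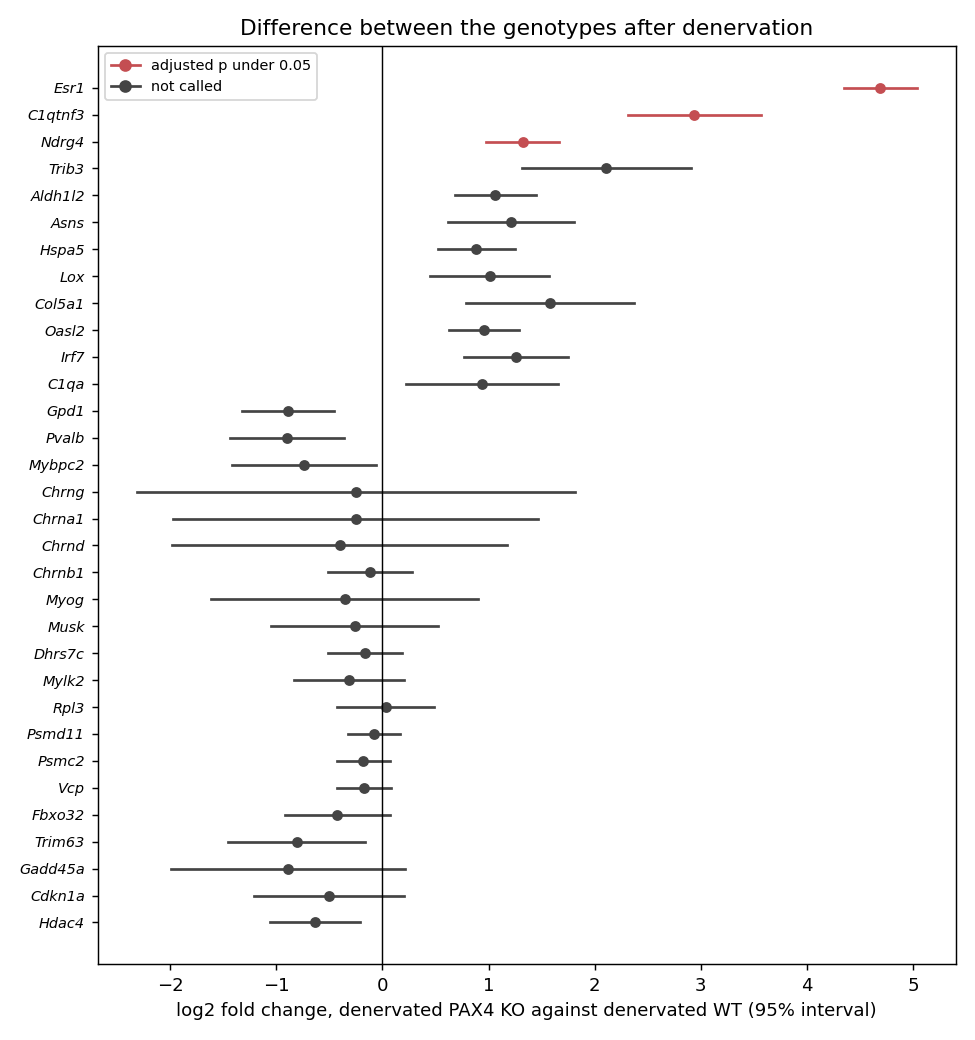
Log2 difference between denervated PAX4 KO and denervated WT muscle (horizontal axis; points, with bars for the 95% interval, 3 libraries a group) for 32 named genes. Red marks an adjusted p under 0.05, which Esr1, C1qtnf3 and Ndrg4 reached, with Esr1 at 4.69.

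Glycolytic genes fell almost throughout: 16 of 17 in PAX4 KO muscle (median -1.60) and 15 in denervated WT muscle (-1.52), with Hk2 not called. Gpd1, the cytosolic glycerol phosphate dehydrogenase, was at 513, 379 and 488 CPM in innervated, 90.3, 67.9 and 57.9 in denervated WT and 41.2, 31.4 and 44.0 in PAX4 KO libraries. The 3 groups did not overlap, with log2 fold changes of -3.56 and -2.67 and a genotype difference of -0.89 (95% interval -1.32 to -0.46, edgeR adjusted p = 0.24). Phkg1, the catalytic subunit of the kinase that starts glycogen breakdown, fell by 2.65. By edgeR 0 of 17 were called between genotypes, 7 had an unadjusted p under 0.05, DESeq2 called 1 and edgeR with no filter 1.

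Mitochondrial genes fell as well. All 21 genes of the TCA cycle and pyruvate dehydrogenase fell in PAX4 KO muscle (median -0.83), against 19 in denervated WT muscle (-0.61). Cs, the citrate synthase gene, was at 947, 932 and 1064 CPM in innervated, 521, 548 and 500 in denervated WT and 502, 411 and 489 in PAX4 KO libraries. All 13 protein genes of the mitochondrial genome fell (median -1.21), against 10 in WT muscle (-0.74). By edgeR 0 of these 13 were called between genotypes, 7 had an unadjusted p under 0.05, DESeq2 called 1 and limma-voom 0. Of 71 nuclear genes of the respiratory chain 54 fell (median -0.65), against 31 in WT muscle (-0.45), and 34 without both innervated library 2 and PAX4 KO library 2. Cox7a1, a muscle subunit of cytochrome oxidase, fell by 1.67. Of 17 fatty acid oxidation genes 14 fell, 9 without innervated library 1 and 7 without PAX4 KO library 2. With scaling to total counts 2 of those 17 rose and 4 fell. In that scaling the TCA cycle median was -0.35, where 11 genes fell, that of the nuclear respiratory chain -0.17, where 17 genes fell, and that of the mitochondrial genome -0.74.

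Nrf1, an activator of genes for mitochondrial proteins, was at 14.3, 12.6 and 16.2 CPM in innervated, 11.1, 10.5 and 14.2 in denervated WT and 11.6, 9.93 and 11.5 in PAX4 KO libraries. Its log2 fold change of -0.39 ± 0.15 SE in PAX4 KO muscle was not called (edgeR adjusted p = 0.062), and was called in 5 alternatives, such as without innervated library 2 (-0.48, adjusted p = 0.0383). Its sign turned with scaling to total counts (0.09, adjusted p = 0.621). Of 12 regulators of mitochondrial biogenesis 2 rose and 1 fell, with Esrrg, an orphan receptor, at 1.09 and Esrra, its relative, at -0.73. Only 1 rose without any of innervated libraries 2 and 3 and PAX4 KO libraries 1 and 3, and 2 fell without innervated library 2. Scaled to total counts, 4 rose and 0 fell, and Esrra lost its call (-0.26, adjusted p = 0.195).

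Ribosomal protein genes rose in near unison. Of 79, 71 rose and 1 fell in PAX4 KO muscle (median 0.76), against 74 and 1 in denervated WT muscle (0.84). The count of 71 was 55 without innervated library 1 and 52 without innervated library 3, with medians of 0.70 and 0.63. Rpl3 was at 96.5, 159 and 89.5 CPM in innervated, 309, 393 and 386 in denervated WT and 335, 389 and 387 in PAX4 KO libraries, a 3.22-fold rise. The gene that fell was Rpl3l, the muscle paralog of Rpl3, at 499, 497 and 502 CPM in innervated, 136, 133 and 137 in denervated WT and 120, 72.3 and 116 in PAX4 KO libraries (log2 -2.28). The pair thus moved in opposite directions in both genotypes, with a genotype difference for Rpl3l of -0.40 (95% interval -0.78 to -0.02). Many ribosomal protein genes have near-identical pseudogenes, and how shared reads were counted is not given in the sources used here.

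Genes for protein folding in the endoplasmic reticulum rose in 17 of 18 cases in PAX4 KO muscle (median 0.99), against 12 in denervated WT muscle (0.53). Hspa5, the chaperone BiP, was at 217, 229 and 199 CPM in innervated, 425, 294 and 342 in denervated WT and 740, 547 and 671 in PAX4 KO libraries. The 3 groups did not overlap and lay in that order. The rise in PAX4 KO muscle was 3.04-fold (log2 1.60 ± 0.17 SE, edgeR adjusted p = 0.000145), against 0.72 in WT muscle, and the genotype difference was 0.88 (95% interval 0.52 to 1.25, adjusted p = 0.185). Trib3, a pseudokinase induced by this stress, was at 1.92, 3.73 and 0.976 CPM in innervated, 7.73, 6.99 and 4.37 in denervated WT and 30.4, 21.9 and 30.1 in PAX4 KO libraries, 12.1-fold above innervated muscle. Its genotype difference was 2.11 (1.31 to 2.90, adjusted p = 0.153). Atf4, whose product is regulated mainly by translation, was the 1 gene of the list not called (-0.17, adjusted p = 0.281). Between genotypes edgeR called 0 of 18, while 17 had an unadjusted p under 0.05, beside 12.9% of all genes. DESeq2 called 6 of them and limma-voom 1, edgeR with no filter on low counts called 8, and edgeR without innervated library 2 and denervated WT library 1 called 6, all higher in PAX4 KO muscle.

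Among amino acid synthesis and transport genes of the integrated stress response, 11 of 17 rose and 2 fell in PAX4 KO muscle (median 0.94), against 5 and 1 in denervated WT muscle (0.06). Asns, the asparagine synthetase, was at 6.21, 6.80 and 3.77 CPM in innervated, 16.5, 9.26 and 8.03 in denervated WT and 27.3, 24.6 and 26.4 in PAX4 KO libraries, a 4.66-fold rise. Mthfd2, a mitochondrial folate enzyme, was at 3.84, 8.50 and 3.73 CPM in innervated, 26.9, 24.5 and 20.5 in denervated WT and 45.3, 38.1 and 39.5 in PAX4 KO libraries. Aldh1l2, another mitochondrial folate enzyme, was at 3.35, 4.93 and 4.43 CPM in innervated, 4.36, 3.86 and 3.53 in denervated WT and 8.09, 8.48 and 8.04 in PAX4 KO libraries. In all 3 genes the PAX4 KO libraries were the highest, and Aldh1l2 did not pass the test in WT muscle (-0.12). Slc7a5, a transporter of large neutral amino acids, rose by 2.89 and Gdf15, a stress cytokine, by 4.68, while Psph fell by 0.82 and Chac1 by 0.99. Chac1 lost its call without innervated library 1, without PAX4 KO library 2 (edgeR adjusted p = 0.0729) and with scaling to total counts (0.120). Psph lost its call with that scaling (0.0669), where 13 genes of the list rose and 0 fell. Between genotypes edgeR called 0 of 17, 13 had an unadjusted p under 0.05, DESeq2 called 5 and limma-voom 0. With no filter edgeR called 8, and 5 without innervated library 2 and denervated WT library 1, all higher in PAX4 KO muscle. The genotype differences were 1.21 for Asns (95% interval 0.62 to 1.80, edgeR adjusted p = 0.241) and 1.06 for Aldh1l2 (0.68 to 1.45, adjusted p = 0.138).

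**Figure D5:**
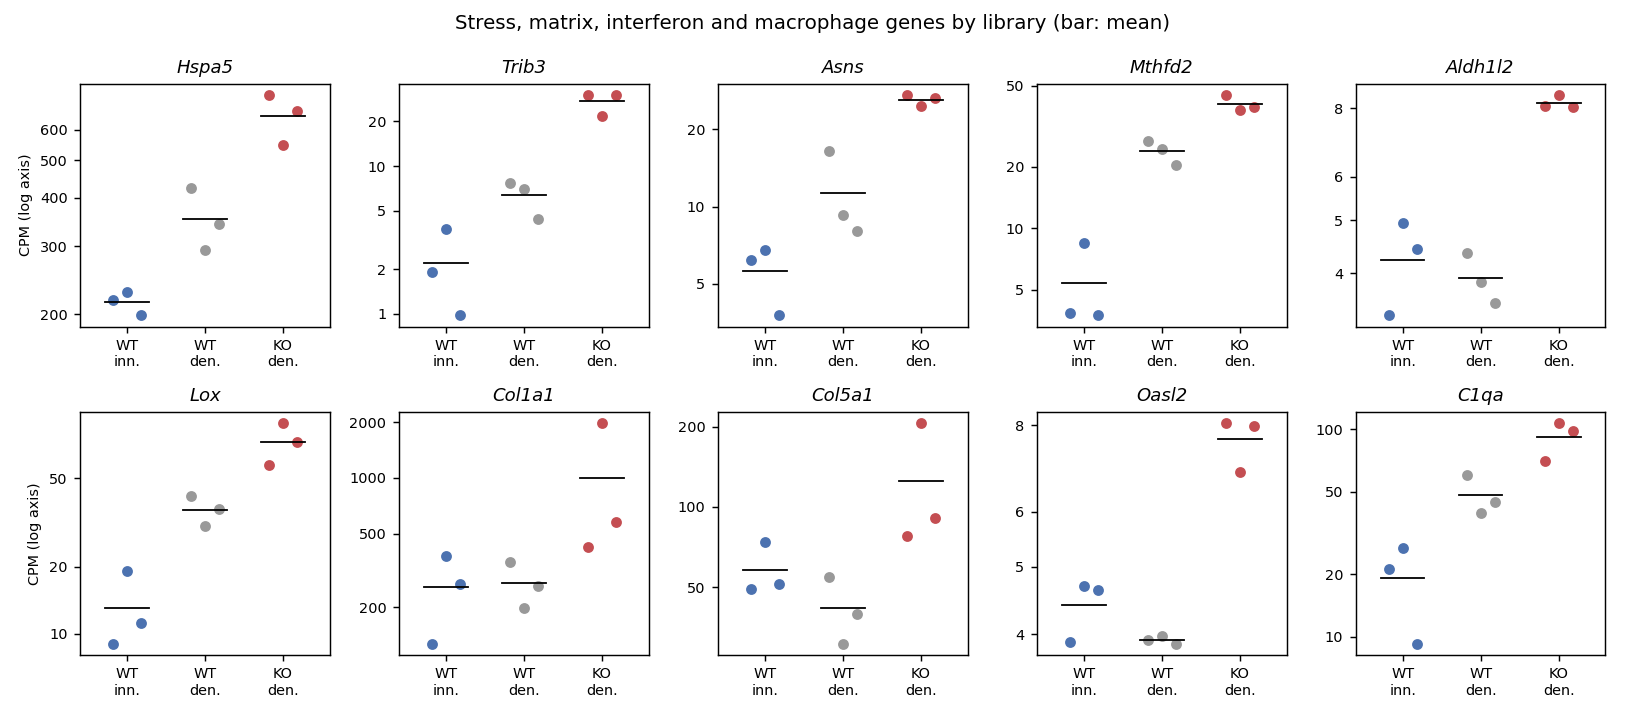
CPM of 10 genes (vertical log axes) in the 3 libraries of innervated WT, denervated WT and denervated PAX4 KO muscle, with library 1 to 3 from left to right and a bar at the mean. PAX4 KO libraries are the highest for every gene shown. Several of the genes were chosen after their values were seen, so this shared pattern follows in part from the choice. By edgeR none was called between the denervated genotypes. PAX4 KO library 2 reaches 1983 CPM for Col1a1, against 423 and 580 in PAX4 KO libraries 1 and 3.

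Heat shock and chaperonin genes rose in both genotypes, 15 of 27 with 1 fallen in PAX4 KO muscle (median 0.44) and 22 in denervated WT muscle (0.55). Scaled to total counts, 24 rose and 0 fell in PAX4 KO muscle. Hspb8, a small heat shock protein of the filamin quality control complex, rose by 2.23 and Hsp90aa1 by 1.09. Hspd1, the mitochondrial chaperonin, had a log2 fold change of -0.36, which was 0.13 with scaling to total counts, and its call was lost when any of innervated libraries 1 and 3 and PAX4 KO libraries 2 and 3 was left out. Of 10 polyamine genes 4 rose and 3 fell. Amd1, which makes the decarboxylated donor for spermidine and spermine, was at 495, 251 and 332 CPM in innervated, 31.6, 34.3 and 25.2 in denervated WT and 23.8, 19.98 and 23.3 in PAX4 KO libraries (log2 -4.00), with reads possibly shared with a close paralog. Smox, the spermine oxidase, fell by 2.98 and Odc1, the ornithine decarboxylase, rose by 1.58.

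Growth factor pathways were mixed. In the IGF and FoxO list 9 of 15 rose and 2 fell (median 0.49), with Foxo1, a driver of atrophy genes, at 0.71 and Irs1, the insulin receptor substrate, at -1.96. The 9 became 4 without innervated library 1 or 3, and 5 without PAX4 KO library 3. In the BMP and myostatin list 5 of 17 rose and 7 fell. Gdf5, a ligand that limits denervation atrophy, rose by 3.53, Id2, a BMP target, by 2.27, and Mstn, the myostatin gene, fell by 1.74. Gdf5 was at 0.246, 3.45 and 0.418 CPM in innervated and 14.2, 18.6 and 19.4 in PAX4 KO libraries. The number that rose was 3 without any of innervated library 1, innervated library 3 or PAX4 KO library 2, and 4 fell with scaling to total counts.

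Extracellular matrix genes rose in 13 of 22 cases in PAX4 KO muscle (median 1.65), against 4 risen and 1 fallen in denervated WT muscle (-0.13). Lox, which crosslinks collagen, was at 9.01, 19.1 and 11.2 CPM in innervated, 41.7, 30.4 and 36.4 in denervated WT and 57.6, 88.7 and 72.5 in PAX4 KO libraries, with no overlap between the 3 groups. Col1a1, a chain of type I collagen, was at 127, 377 and 266 CPM in innervated, 350, 198 and 259 in denervated WT and 423, 1983 and 580 in PAX4 KO libraries. All PAX4 KO libraries lay above all WT libraries, and library 2 far above its companions (log2 1.95 against innervated muscle, edgeR adjusted p = 0.0191). Without PAX4 KO library 2 the list had 8 genes risen and 1 fallen, with a median of 0.57, and without innervated library 3 also 8 and 1. Without innervated library 2 it had 13 risen and a median of 1.85. Between genotypes edgeR called 0 of 22, 19 had an unadjusted p under 0.05, DESeq2 called 4 and limma-voom 0. With no filter edgeR called 17 higher in PAX4 KO muscle, and 4 without innervated library 2 and denervated WT library 1. The genotype difference for Lox was 1.01 (95% interval 0.45 to 1.57, edgeR adjusted p = 0.264). Fibroblast markers (8 genes) summed to 1903 to 2593 CPM in innervated, 1378 to 1581 in denervated WT and 1531 to 2150 in PAX4 KO libraries, the last in library 2. Their part in the matrix result was not tested, and in bulk tissue more cells of a type and more RNA per cell cannot be told apart.

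Macrophage markers rose in all 13 cases in PAX4 KO muscle (median 2.26), against 10 in denervated WT muscle (1.33). Their sum was 116 to 363 CPM in innervated, 432 to 880 in denervated WT and 785 to 1371 in PAX4 KO libraries, highest in PAX4 KO library 2. C1qa, a complement chain made by macrophages, was at 21.3, 26.8 and 9.24 CPM in innervated, 60.0, 39.5 and 44.5 in denervated WT and 70.0, 107 and 98.5 in PAX4 KO libraries. PAX4 KO libraries lay above all others. Cd68 rose by 2.75 and Fcgr1, an antibody receptor, by 2.61. Between genotypes edgeR called 0 of 13, 5 had an unadjusted p under 0.05, and DESeq2 and limma-voom called 0. With no filter edgeR called 4 higher, and 1 without innervated library 2 and denervated WT library 1. Of 5 neutrophil markers tested 4 rose. S100a8, a calcium-binding alarmin of neutrophils, headed the 10 highest genes with a mean of 8 CPM or more, at 1.03, 2.00 and 0.593 CPM in innervated, 17.8, 128 and 46.1 in denervated WT and 39.1, 15.7 and 38.4 in PAX4 KO libraries (log2 4.63 ± 0.77 SE, edgeR adjusted p = 0.00132). Ccl8, a chemokine that draws monocytes, was among the 10 highest at 4.01, with 17.3, 50.1 and 52.6 CPM in PAX4 KO libraries.

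Interferon response genes rose in 8 of 15 cases in PAX4 KO muscle (median 0.42), while denervated WT muscle had 1 risen and 1 fallen (-0.21). Oasl2 was at 3.89, 4.69 and 4.64 CPM in innervated, 3.92, 3.97 and 3.87 in denervated WT and 8.06, 6.84 and 7.99 in PAX4 KO libraries. PAX4 KO libraries lay above both WT groups, and the genotype difference was 0.96 (95% interval 0.63 to 1.29, edgeR adjusted p = 0.138). Irf7, a factor of this response, rose by 1.05, with a genotype difference of 1.26 (0.76 to 1.75, adjusted p = 0.169). The 8 became 4 without innervated library 1 or 3, 5 without PAX4 KO library 2 or 3, and 13 with scaling to total counts. Between genotypes edgeR called 0 of 15, 10 had an unadjusted p under 0.05, DESeq2 called 5 and limma-voom 0. With no filter edgeR called 4 higher, and 1 without innervated library 2 and denervated WT library 1. Macrophage markers rose in both denervated genotypes (medians 2.26 in PAX4 KO and 1.33 in WT muscle), while the interferon median was below 0 in denervated WT muscle. The part of macrophages in the interferon result was not tested. Among 14 cell cycle genes 9 rose and 1 fell in PAX4 KO muscle, against 1 and 2 in denervated WT muscle. That count was 3 and 2 without PAX4 KO library 2, 2 risen without innervated library 1 and 3 without innervated library 3. Mki67, a proliferation marker, was at 6.37, 22.4 and 6.79 CPM in PAX4 KO libraries 1 to 3 and between 0.697 and 3.40 in innervated ones.

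Endothelial markers mostly fell in both denervated genotypes. Of 9 Schwann cell markers 4 fell in PAX4 KO muscle and 5 in denervated WT muscle. Mbp, a myelin gene of Schwann cells, was at 29.2, 37.5 and 53.5 CPM in innervated, 6.62, 6.07 and 6.73 in denervated WT and 6.09, 7.46 and 6.01 in PAX4 KO libraries. It fell by 2.62 in PAX4 KO muscle (edgeR adjusted p = 4.56e-05), with no overlap with the innervated libraries. The 1 Schwann cell marker that rose in PAX4 KO muscle was Ngfr, a receptor of Schwann cells without axon contact, at 1.63. Of 9 endothelial markers 8 fell in PAX4 KO muscle, 5 without PAX4 KO library 2 or 3, with a median of -0.77. In denervated WT muscle 7 fell, with a median of -0.73. Scaled to total counts, 2 fell in PAX4 KO muscle and the median was -0.29. All 5 red blood cell genes fell in PAX4 KO muscle (median -1.94), against 1 in denervated WT muscle (-0.95). Hbb-bs, a beta globin with close copies, was at 757, 329 and 230 CPM in innervated, 292, 207 and 183 in denervated WT and 92.9, 82.0 and 144 in PAX4 KO libraries. PAX4 KO libraries were the lowest. By edgeR 0 of these 5 were called between genotypes, 4 had an unadjusted p under 0.05, and DESeq2 and limma-voom called 0. With no filter edgeR called 4 of them lower in PAX4 KO muscle. Aqp4, the water channel of fast fibres, was at 105, 53.3 and 79.7 CPM in innervated, 12.1, 9.68 and 9.53 in denervated WT and 7.02, 3.93 and 2.86 in PAX4 KO libraries, a log2 fold change of -4.10 with a genotype difference of -1.18 (95% interval -1.89 to -0.47, edgeR adjusted p = 0.276). Also among the 10 lowest were Mettl21c at -3.84, a methyltransferase of muscle, Ramp1 at -3.79, which partners the receptor of the nerve peptide CGRP, and Ces1d at -3.72, a carboxylesterase. Of the other lists, 5 of 7 smooth muscle and pericyte markers fell, against 6 in denervated WT muscle. Of 7 adipocyte markers 1 fell (3 without PAX4 KO library 2), against 4 in WT muscle. Of 7 T and B cell markers 4 fell (2 without innervated library 3), against 1 in WT muscle, and Cd4 rose. The log2 fold change of Cd4 was 1.60 (edgeR adjusted p = 0.0182), and its call was lost without innervated library 2 or PAX4 KO library 2. Of 5 satellite cell markers 2 rose, 1 without innervated library 2 or PAX4 KO library 3. Among 8 fibroblast markers 1 rose and 1 fell, and among 8 muscle fibre markers 2 rose and 2 fell. With scaling to total counts 5 fibroblast markers rose and 0 fell, and 3 smooth muscle and pericyte markers fell. Of 5 immunoproteasome and activator genes 1 rose, Psme2 (0.38, edgeR adjusted p = 0.0487). The count was 4 without innervated library 2, and 0 without innervated library 1 or 3 or PAX4 KO library 2 or 3. By limma-voom 0 were called, and by DESeq2 0 rose and 1 fell.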

How the data were processed

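RNA was sequenced from skeletal muscle, extracted with TRIzol and prepared with a SMARTER mRNA-Seq kit, per the labels' protocols. The authors deposited raw read counts per gene. The submitters' processing notes name the genome builds GRCm38 and mm10. Aligner, counter, annotation and strandedness: not given in the sources used here. Reads of antisense genes and close paralogs are therefore uncertain. Columns were tied to groups by name and numbered 1 to 3 in ascending order of the number in the column name, which is in no label. Libraries within a group differed by more than sampling noise.

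The test was the quasi-likelihood F test of edgeR 4.0.16 under R 4.3.3, with TMM scaling, filterByExpr and 1 fit over the 9 libraries. Every adjusted p is from that fit unless another tool is named. CPM use TMM-scaled library sizes. Intervals are at 95%, from the fit. DESeq2 1.42.0 and limma 3.58.1 (voom) were alternatives, as were DESeq2 size factors in edgeR, no filter, a minimum of 5 CPM, a fit of the 2 groups alone, a log2 fold change above 1, each library left out and 2 left out together. Scaling to total counts and leaving out innervated library 2 with PAX4 KO library 2 were chosen after seeing the data. The fit was tested on simulated data with the same spread for every gene and no outlying library. That test therefore does not cover libraries such as innervated library 2.

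Named genes were a fixed set, the 10 highest and 10 lowest called genes whose mean reached 8 CPM and whose libraries did not overlap, up to 2 members per list and direction by smallest adjusted p, and genes called between genotypes. The members and the 33 gene lists and 11 marker lists were chosen with earlier results of these data known. Chrne, Runx1, Hdac4, Myh4, Ctsl, Hk2, Trib3, Atf4, Asns, Aldh1l2, Slc7a5, Col1a1, Cd68 and Mki67 fall outside that rule and were chosen after their values were seen. Some genes that met the rule are not reported here. GENCODE (GRCm38) gave symbols and coordinates, RefSeq the promoters.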

Additional observations from a re-analysis of the deposited data

Results flagged for a closer look

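In 3 genes the level differed between the denervated genotypes by the direct test. With no innervated PAX4 KO muscle analysed here, this cannot be told apart from a difference that was present without denervation. The log2 difference, PAX4 KO minus WT muscle, was 4.69 for Esr1, 2.94 for C1qtnf3 and 1.32 for Ndrg4 (edgeR adjusted p = 2.71e-07, 0.00605 and 0.0304), with the values of all 3 PAX4 KO libraries above all 6 WT libraries in each gene.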

How the results depend on the processing

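The counts for PAX4 KO against innervated muscle were 2490 to 3495 higher and 2258 to 2993 lower with 1 library left out, 428 and 344 for a log2 fold change above 1, and 8337 and 1068 with scaling to total counts. For WT denervation they were 1741 to 2692 and 1768 to 2591 (lowest without innervated library 1 or 3), 275 and 249, and 5484 and 1047. Between the denervated genotypes, 3 higher and 0 lower became 138 and 71 by DESeq2, 5 higher and 0 lower by limma-voom, 348 and 108 with no filter, 105 and 64 without innervated library 2 and denervated WT library 1, and 1 to 16 higher and 0 to 10 lower with 1 library left out (most without denervated WT library 1). The cause was not tested. With scaling to total counts Hspd1 was at 0.13 and Fabp4 at 0.034, in place of falls, and 88.6% of called genes were higher, against 54.5%. DESeq2 gave no adjusted p for Chrna1, Chrng and Myh3.

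No paired analysis was possible for PAX4 KO against innervated muscle because their columns share no number. Innervated and denervated WT columns do share numbers. Deviations of same-numbered libraries correlated at 0.18, 0.09 and 0.35 over genes, each the best match of its library, which is a hint from the data and not the design. A replicate block there gave 2538 higher and 2496 lower.

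With 3 libraries a group, wide intervals such as that of Chrng cannot tell a genotype difference from none, and single libraries decided several list counts.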
